A study of Homo sapiens with 4 samples.

Results

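LNX2, PLEKHA4, AVPI1, ALLC, AKAP1 and ARHGAP39 are 6 protein-coding genes that had peaks in all 3 RNA pull-downs made from RD cells, an established line of embryonal rhabdomyosarcoma. Biotinylated antisense probes were used to fish RNA out of the cells. The pull-downs were made with an even set and an odd set of probes, both against exon 2 of ZNF609, the exon that forms the circular RNA circ-ZNF609, and with probes against the bacterial LacZ mRNA as the control. All came from the same line in the same medium, with 1 library per probe set, so no value below has a replicate error and no test between probe sets was possible. The input of total cell lysate was not analysed here. The 6 genes were picked from these same peak lists because every list had a peak in their spans, so their presence in the 3 lists is a description and not a finding. They are 6 of 958 genes whose annotated span had a peak in any list, of which 47 had a peak in all 3 lists (4.91%).

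In a pull-down of this kind, probes are tiled along a target RNA, and separate sets of probes against the same target are used because they share the target and not each other's chance partners. Control probes against an RNA that human cells lack show what is recovered without the target. RNA found with the control probes and with every target set is commonly treated as background of the procedure. Such background is known to include RNA that sticks to the beads or pairs with a probe by chance.

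The deposited lists give, for each peak, its place in whole bins of 170 bases, the number of reads per bin, a p-value below 0.01 from the authors' peak caller, and an unnamed score in column 8. The even list held 502 peaks with 482418 reads in peaks, the odd list 542 peaks with 279415 reads, and the LacZ list 722 peaks with 219401 reads. These totals cover listed peaks alone, and the depth of the whole libraries is unknown. Reads per bin were not scaled between libraries, so values from several lists stand side by side without a claim about which probe set recovered more RNA. ZNF609, the target, had 1 even peak, 3 odd peaks and 0 LacZ peaks. Only 1 of the odd peaks, at chr15:64499531-64500040, overlapped the even peak, at chr15:64499361-64500040. The other odd peaks began at 64670381 and 64673781. Of 11 muscle and rhabdomyosarcoma marker genes, DES, TNNT1, TNNT2 and ACTC1 had a peak, whereas MYOD1, MYOG, MYF5, MYH3, MYH8, PAX7 and PAX3 had none. By list, 4 of these markers had an even peak, 3 an odd peak and 1, TNNT2, a LacZ peak. Of 6 markers of other cells, KRT18 had a peak, in the odd list. Of all 20056 annotated protein-coding genes, 847 had a peak in any list (4.22%). A gene without a peak may still be expressed.

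The peaks of 5 of the 6 genes lay at a single place in the gene span, and that place was the same for every probe set. Strand was ignored, so a peak is not shown to be RNA of the gene whose span holds it. LNX2, AVPI1 and ALLC had peaks with the same start and end in all 3 lists. In PLEKHA4 and AKAP1 the peaks differed in width and shared 1 bin. ARHGAP39 was the exception, with 0 bins common to the 3 lists. Of all 958 genes with a peak, 28 had a bin occupied in all 3 lists (2.92%), which is 59.6% of the 47 genes with a peak in every list. Exactly 1 peak in each list was found in 15 genes, of which 12 had a common bin (80.0%). The 5 genes are among these 12, and of the other 10 genes 7 had a common bin (70.0%). Sharing a bin was part of the choice of the 6 genes, so nothing is read from this difference.

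**Figure D1:**
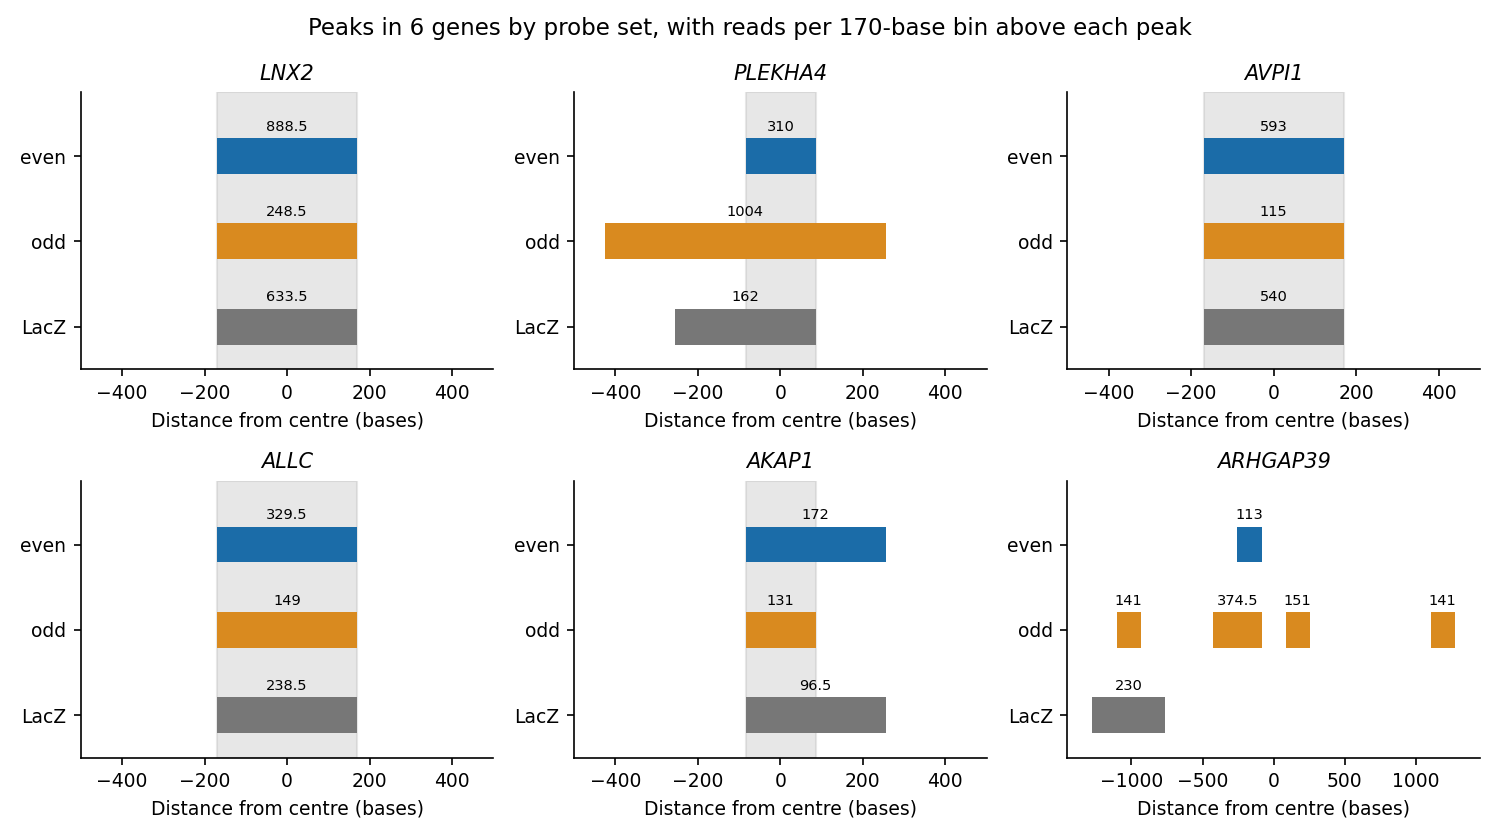
Position of each peak in the 6 genes, as distance in bases from the centre of the bins common to the 3 lists (grey band), or from the centre of all peaks for ARHGAP39, which had no common bin and has a wider axis. Rows are the even, odd and LacZ lists, and the number above each peak is its reads per bin, for example 888.5, 248.5 and 633.5 in LNX2.

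LNX2 (gene ID 222484) encodes a ubiquitin ligase with a RING domain and PDZ domains that binds the Notch regulator NUMB. Its span on GRCh38 runs over chromosome 13, 27545913 to 27621107, on the minus strand. The peak was 340 bases wide in each list, at chr13:27583011-27583350, and had 888.5 reads per bin with even probes, 248.5 with odd probes and 633.5 with LacZ probes. Within each list, this was 3.03 times the median peak of the even list, 1.12 times that of the odd list and 5.51 times that of the LacZ list, so each of the 3 peaks lay above its list's median. Ordered by p-value, the even peak was at rank 5 of 502, where its p-value was 1.64e-10. For the odd peak the p-value was 0.000229, at rank 71 of 542. The LacZ peak was at rank 1 of 722, with a deposited p-value of 0. These p-values are the authors' and come from 1 library each. The place is inside the gene, 37179 bases downstream of the annotated start site. No other annotated span covers it, although the span of LNX2 also overlaps that of POLR1D elsewhere.

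AVPI1 (gene ID 60370), a gene induced by arginine vasopressin, stood high in the even and LacZ lists and low in the odd list. It spans chromosome 10, 97677424 to 97687241, on the minus strand, and its peak lay at chr10:97678771-97679110 in each list. There were 593 reads per bin with even probes, 115 with odd probes and 540 with LacZ probes. The odd peak was near the weakest that the odd list contains, which had 105 reads per bin. It was at rank 456 of 542 with a p-value of 0.00737, while the even peak was at rank 18 of 502 with a p-value of 1.05e-07 and the LacZ peak shared rank 1 of 722. The deposited p-value was 0 for 3 LacZ peaks, and those of AVPI1 and LNX2 were among them. AVPI1 is the shortest of the 6 genes, with a span of 9818 bases. Its peak began 1347 bases from the end of the gene that lies opposite the start site.

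ALLC (gene ID 55821) encodes allantoicase, an enzyme of uric acid breakdown in other vertebrates whose pathway is not complete in humans. It spans chromosome 2, 3645819 to 3702671, on the plus strand. In each list its peak lay at chr2:3651261-3651600, with 329.5 reads per bin with even probes, 149 with odd probes and 238.5 with LacZ probes. In unscaled reads per bin the order of the lists was that of LNX2 and AVPI1, with even highest and odd lowest. Its p-value was 8.41e-05 for even, 0.00353 for odd and 1.04e-08 for LacZ probes, at ranks 87 of 502, 288 of 542 and 23 of 722. The peak was inside the annotated span but 6600 bases upstream of the start site in the RefSeq promoter table, and it began 5442 bases from the lower end of the span. GAPDHP48 and LOC105373393 also lie within the span of ALLC, and neither overlapped the peak.

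PLEKHA4 (gene ID 57664) encodes a pleckstrin homology domain protein that binds membrane phosphoinositides and takes part in Wnt signalling. Its widest peak and its highest reads per bin were in the odd list. The gene spans chromosome 19, 48837097 to 48868617. The even peak was 170 bases wide with 310 reads per bin, the odd peak 680 bases wide with 1004 reads per bin, and the LacZ peak 340 bases wide with 162 reads per bin. The peaks were nested, the even within the LacZ and the LacZ within the odd peak, and the bin common to all was chr19:48868371-48868540. That bin ended 77 bases before the higher end of the gene span, and the odd peak ran 93 bases beyond it. By reads per bin the odd peak was at rank 17 of 542, but its p-value of 0.000768 put it at rank 127. For the even peak the p-value was 6.42e-05, at rank 81 of 502, and for the LacZ peak it was 7.45e-06, at rank 80 of 722.

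AKAP1 (gene ID 8165) encodes an anchoring protein of the mitochondrial outer membrane that holds protein kinase A and also binds mRNA. By reads per bin its peaks were below the median in every list, while by p-value the LacZ peak stood higher, at rank 193 of 722. The gene spans chromosome 17, 57085246 to 57121344, on the plus strand. The even peak had 172 reads per bin, the odd peak 131 and the LacZ peak 96.5. The even and LacZ peaks were identical, 340 bases wide, at chr17:57106231-57106570, and the odd peak covered the first bin of these, chr17:57106231-57106400. Each value was below the median peak of its list, at 0.587 times for even, 0.591 times for odd and 0.839 times for LacZ. The p-values were 0.00408 for the even peak at rank 338 of 502, 0.00894 for the odd peak at rank 516 of 542 and 0.000298 for the LacZ peak at rank 193 of 722. The common bin was 20327 bases downstream of the nearest annotated start site.

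ARHGAP39 (gene ID 80728) encodes a GTPase activating protein for the small GTPases RAC1 and CDC42. It had the most peaks of the 6 genes, with 1 even, 4 odd and 1 LacZ peak, all within 2550 bases of a span of 171184 bases on chromosome 8. The even peak, at chr8:144601831-144602000, had 113 reads per bin, close to the 108 of the weakest even peak. The strongest odd peak, at chr8:144601661-144602000, had 374.5 reads per bin and included the bin of the even peak. The other odd peaks had 141, 151 and 141 reads per bin. The LacZ peak, at chr8:144600811-144601320, had 230 reads per bin and covered the first of the odd peaks, at 144600981 to 144601150. The odd probes thus shared 1 bin with the even probes and another bin with the LacZ probes, and 510 bases lay between the even and the LacZ peak. By p-value the even peak, at 0.00854, came near the end of its list at rank 468 of 502. The strongest odd peak was at rank 30 of 542, at 3.00e-05, and the LacZ peak at rank 51 of 722, at 7.87e-07. The weakest odd peak had a p-value of 0.00957, the highest among the peaks of the 6 genes and just inside the limit of 0.01.

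**Figure D2:**
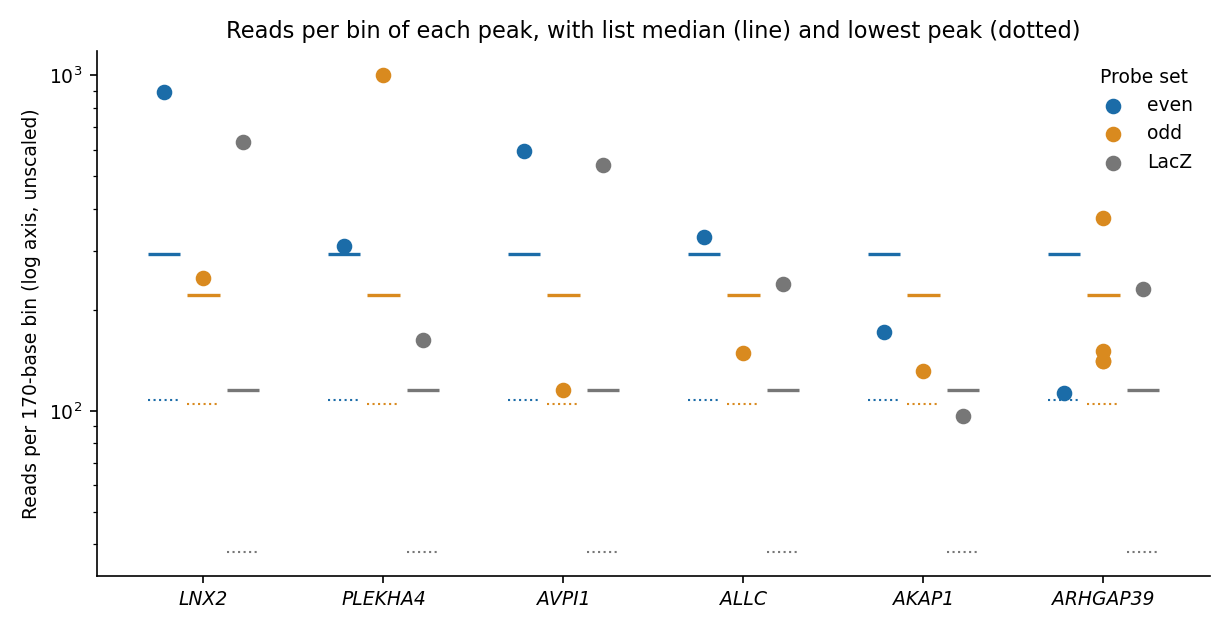
Reads per bin of each peak in the 6 genes (points, log axis, not scaled between libraries), with the median of each list as a line and its weakest peak as a dotted line. LNX2, AVPI1 and ALLC stand at 5.51, 4.70 and 2.07 times the LacZ median, the odd point of AVPI1 lies near the weakest odd peak, and all 3 points of AKAP1 lie below their list's median.

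The order of the 6 genes was similar in the even and LacZ lists and different in the odd list. Reads per bin were used in choosing the 6 genes, so the choice may have fixed these orders, and they are given as a description. Taking the strongest peak of each gene, the even list ran LNX2, AVPI1, ALLC, PLEKHA4, AKAP1 and ARHGAP39 by reads per bin. The LacZ list also began with LNX2, AVPI1 and ALLC and then had ARHGAP39, PLEKHA4 and AKAP1. The odd list began with PLEKHA4 at 1004 and ARHGAP39 at 374.5, followed by LNX2, ALLC, AKAP1 and, last, AVPI1. Together the 6 genes held 0.910% of the reads in even peaks (exact 95% interval 0.883 to 0.937), in 6 peaks over 1700 bases. They held 2.27% of the reads in odd peaks (2.22 to 2.33), in 9 peaks over 2720 bases, and 1.84% in LacZ peaks (1.78 to 1.89), in 6 peaks over 2210 bases. The intervals cover counting error only, and these reads may include copies of 1 molecule. PLEKHA4 alone made up 1.44% of the reads in odd peaks (1.39 to 1.48), 0.0643% in even peaks (0.0573 to 0.0718) and 0.148% in LacZ peaks (0.132 to 0.165). Each share depends on the other peaks of its list, and the PLEKHA4 peaks differed in width. The shares are thus no measure of which probe set recovered more RNA.

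The score in column 8 was at its lowest in all 3 lists in LNX2 and AVPI1, and varied within ARHGAP39. It comes in steps of 1/4434, and no source used here says what it measures or whether the peak caller used it. If it entered the caller as a covariate, the p-values and the ranks by p-value would depend on it, and this was not tested. In the odd list, the ARHGAP39 peaks of 141 reads per bin, each 1 bin wide, had unequal p-values from the authors' caller. These were 0.00514 at 5 steps and 0.00957 at 13 steps. The peaks of LNX2 and AVPI1 had a score of 1 step, the lowest that occurs, in all 3 lists, and those of ALLC had 3 steps in all 3 lists. Of the places with a common bin, 12 had peaks with the same start and end in the 3 lists. At each of these the score was also equal in the 3 lists, for example 97 steps in PTMS and 45 in EZR. The score thus went with the position of the peak, and equal scores across lists are not separate observations. PLEKHA4 had 1 step in the even and a mean of 2.5 steps in the LacZ peak. ARHGAP39, whose peaks covered different bins, varied most. It had 1 step in its even peak, 1.5 to 13 steps in its odd peaks and 9 in its LacZ peak. The AKAP1 peaks had 8 steps in the even and LacZ lists and 9 in the odd list. Over all peaks, the median score was 12.5 steps for even, 10.6 for odd and 18 for LacZ peaks, and 11.6% of even, 8.86% of odd and 7.89% of LacZ peaks had 1 step. The PLEKHA4 odd peak, at a mean of 12.8 steps over 4 bins, included a bin with a fixed value of 0.01 that occurs in 22 odd peaks and is not a whole number of steps. The gene choice used the score, so these values are given without a test.

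Among peaks with an equal score, the LNX2 and AVPI1 peaks stood high in the even and LacZ lists. Reads per bin and the score were used in choosing the 6 genes, so these ranks are a description. In the even list LNX2 had the highest reads per bin of 58 peaks with a score of 1 step, where the median was 170.5, and AVPI1 was at rank 6. In the LacZ list LNX2 and AVPI1 were at ranks 1 and 2 of 57 such peaks, where the median was 59. In the odd list LNX2 was at rank 13 and AVPI1 at rank 38 of 48 such peaks, where the median was 159.5. ALLC was at rank 6 of 21 even, rank 19 of 31 odd and rank 3 of 26 LacZ peaks with a score of 3 steps. The LacZ peak of ARHGAP39 was the highest of 19 LacZ peaks with a score of 9 steps, and its even peak was at rank 53 of 58 with a score of 1 step. AKAP1 was at rank 10 of 14 even and rank 5 of 10 LacZ peaks with 8 steps, and at rank 12 of 13 odd peaks with 9 steps. PLEKHA4 was at rank 11 of the 58 even peaks with 1 step and rank 1 of 5 LacZ peaks with 2.5 steps.

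**Figure D3:**
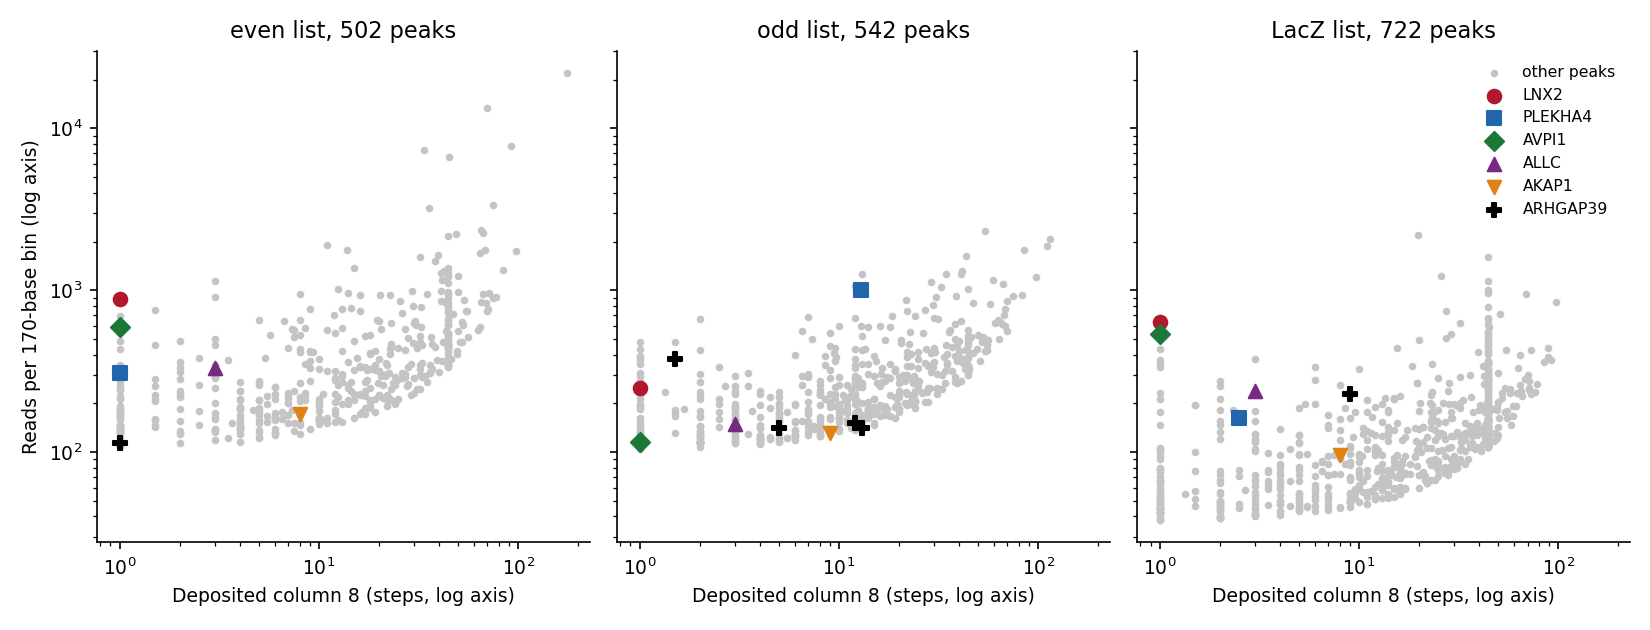
Reads per bin against the deposited column 8 score, in steps, for every peak of the even, odd and LacZ lists (grey, both axes log) and for the peaks of the 6 genes (coloured). LNX2 and AVPI1 lie at a score of 1 step, near the top of the peaks there in the even list and as the 2 highest in the LacZ list. The lower edge of the grey points rises with the score in each panel.

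The common bins of LNX2, PLEKHA4, AVPI1, ALLC and AKAP1 were then set beside those of the 23 other genes that have one. Each gene was represented by its best-ranked set, the even, odd and LacZ peak that share a bin and have the lowest mean rank by p-value. SNORD82 lies within NCL and has the same set, which leaves 22 other sets and 27 in all. Further sets of the same gene, where there were any, were left out. The mean score of the 3 peaks had a median of 3 steps over the 5 genes (range 1 to 8.33), against 30.9 over the 22 other sets (range 1 to 97). The score was used in choosing the 5 genes, so the choice may have fixed this difference, and nothing is read from it. Among the other sets, those of MAP3K12, which encodes a stress kinase of axons, and MYO10, which encodes an unconventional myosin, were the 2 with 3 steps or fewer. The MAP3K12 peaks had 432.5 reads per bin with even, 124 with odd and 335.5 with LacZ probes, a profile like that of LNX2, and those of MYO10 had 146, 123 and 38.

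In these sets the ratio of reads per bin between lists, unscaled, serves to order genes within the same 3 libraries. Reads per bin and their ranks were used in choosing the 6 genes, so the choice may have fixed where these ratios fall, and they are given as a description. The even to LacZ ratio was 1.10 in AVPI1, 1.38 in ALLC, 1.40 in LNX2, 1.78 in AKAP1 and 1.91 in PLEKHA4. Over the 22 other sets the median was 2.72 and the range 0.550 to 34.4. The odd to LacZ ratio was 0.213 in AVPI1, the lowest of the 27 sets, 0.392 in LNX2 and 0.625 in ALLC, against 1.36 in AKAP1, 6.20 in PLEKHA4 and a median of 2.55 over the other sets. Reads per bin ran even, LacZ, odd from high to low in LNX2, AVPI1 and ALLC. This order was found in 3 of the 22 other sets, those of MAP3K12, CREBBP and KANK2, while 12 of the 22 ran even, odd, LacZ. The ratios share the same 3 libraries and carry no replicate error.

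**Figure D4:**
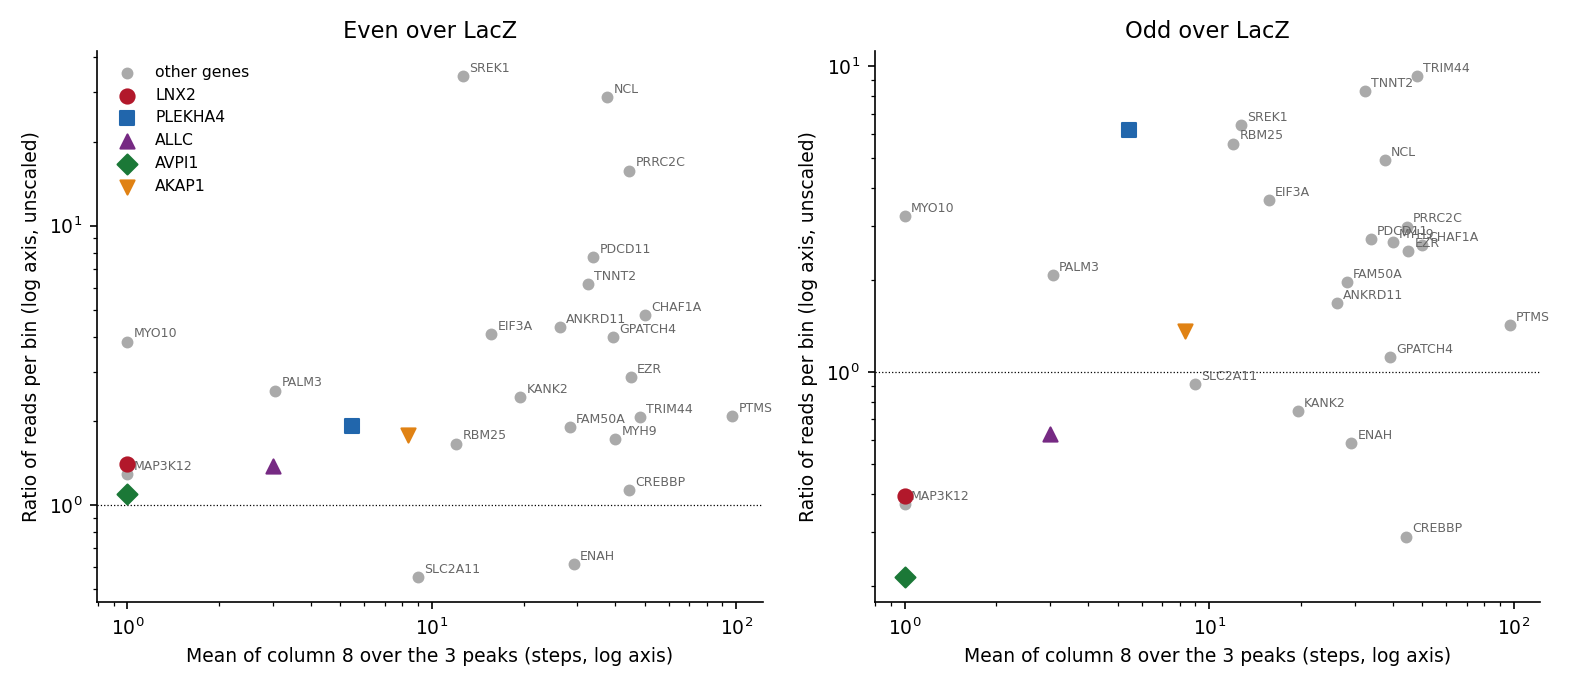
Ratio of reads per bin, even over LacZ (left) and odd over LacZ (right), against the mean column 8 score in steps for the best-ranked set of peaks of each of 27 genes with a bin in all 3 lists (all axes log, reads unscaled). AVPI1, LNX2 and ALLC lie at low scores with ratios of 1.10 to 1.40 on the left and 0.213 to 0.625 on the right, with MAP3K12 beside them, and PLEKHA4 lies high on the right at 6.20.

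The strongest of the other genes with a common bin, in order of mean rank by p-value, were RBM25, EIF3A, PRRC2C, TNNT2, ENAH, ANKRD11, MAP3K12, PDCD11, GPATCH4 and CREBBP. LNX2 preceded all of them, PLEKHA4 came after EIF3A, ALLC after ENAH, AVPI1 after GPATCH4, and AKAP1 was 24th of the 27. Ranks within the lists were used in choosing these genes, so the choice may have fixed their places in this order, and nothing is read from them. RBM25, a splicing factor gene, and TNNT2, which encodes cardiac troponin T, had common bins at more than 1 place, with 3 and 5 sets of peaks. Each of the 5 genes had 1 set, as did 15 of the 22 other genes and 4 of these 10. The best-ranked RBM25 set had 315 reads per bin with even, 1060.5 with odd and 190 with LacZ probes at a score of 12 steps. That of TNNT2 had 786, 1051.5 and 127 at 32.5 steps. CREBBP, a histone acetyltransferase gene, had 1287.5, 330.5 and 1142, the same order as LNX2, but at a score of 44.3 steps, the fixed value.

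The relatives examined for LNX2, PLEKHA4 and ALLC had no peak, whereas several A-kinase anchoring proteins other than AKAP1 had one. LNX2 was the 1 of 4 genes in the list of LNX and PDZ-RING ubiquitin ligases with a peak, PLEKHA4 the 1 of 8 PLEKHA genes, and ALLC the 1 of 13 purine degradation enzymes. Each family count includes the gene itself, which was chosen because it has peaks. Of 14 annotated genes for A-kinase anchoring proteins, 6 had a peak, AKAP1 among them, against 4.22% of all protein-coding genes. Of these 6 genes 3 had an even, 2 an odd and 3 a LacZ peak. Apart from AKAP1 these genes had peaks in 1 list each, AKAP6 and AKAP9 with even probes, AKAP12 with odd probes, and AKAP8L and AKAP13 with LacZ probes. Of 12 genes listed as partners of AKAP1, PRKAR1A, a regulatory subunit of protein kinase A, had a peak. It occupied the same bin, chr17:68512041-68512210, with 158 odd and 135 LacZ reads per bin, and had no even peak. Of 11 Notch pathway genes, 0 had a peak. Beside the 4.22% of all annotated protein-coding genes with a peak, an absence says little about any of these groups. Gene length, which sets how much of the genome a span covers, was not taken into account, and the lists were chosen with results known.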

How the data were processed

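Per the labels' protocols, libraries were made from total RNA with Ovation RNA v2 and then Ovation Ultralow v2. STAR 2.5.2b, Picard, Trimmomatic, SAMtools, bcl2fastq 2.0.2 and bedtools are named, with GRCh38, per the submitters' processing notes. No source used here gives their settings or how duplicates and multiply aligned reads were handled, which can change reads per bin. The deposited lists are named for the peak caller Piranha. They have 8 columns and no header, so the values were used to find their units. As deposited, the signal is reads per bin of 170 bases, or the mean over joined bins (whole reads in 100% of peaks, tolerance 0.02). The deposited p-value of the authors' caller stayed below 0.01 throughout, and its correction is not stated. The score deposited by the authors in column 8 is a whole number of steps of 1/4434 per bin (tolerance 0.005) or a fixed value of 0.01.

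Peaks were called per library. Here they were given to every RefSeq gene span (GRCh38.p14) that they overlap by at least 1 base, with strand ignored, using Python 3.11.15 and pandas 2.3.3. All peaks are listed on the plus strand. Exon positions and a genome sequence were not used here, so peaks are not placed in exons or introns and base composition was not computed. The overlap steps were tested on simulated data. Start sites come from the RefSeq promoter table, which has entries for LNX2, AVPI1, ALLC and AKAP1. The 6 genes and the gene lists were chosen with earlier results of these data known. The 10 other genes named in order have a bin in all 3 lists and the best mean rank by p-value. KANK2, MYO10, NCL and SNORD82 were named after their values were seen, as was POLR1D. Intervals are exact Clopper-Pearson intervals computed with scipy 1.17.1. Alternatives changed the peaks kept, the overlap and the assignment to genes. The gene lists built around ARHGAP39 are not reported here.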

Additional observations from a re-analysis of the deposited data

How the results depend on the processing

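The 5 genes with a common bin became 2 when peaks with a p-value below 0.001 alone were kept, LNX2 and PLEKHA4, and the places common to all lists in the 6 genes likewise fell to 2. In that setting 5 genes of the whole series had a bin in all 3 lists, against 28, and 5 had a peak in all 3 lists, against 47. They were LNX2, PLEKHA4, EIF3A, PRRC2C and RBM25. Fewer peaks enter that setting, by its construction. In the other settings the count of the 6 genes was 4 or 5. PLEKHA4 lost its common bin without peaks over the fixed column 8 value, and under a reciprocal overlap of 50%. AKAP1 lost it in lists trimmed to their 502 strongest peaks. LNX2 kept a common bin in all 5 settings, and ARHGAP39 had none in any. The counts over all genes stayed within 1.5 times in those settings. With 1 library per probe set there was no replicate to leave out. No paired analysis was possible because each probe set has 1 library. The depth of the libraries is unknown. Peaks with few reads per bin, such as those of AKAP1 and the even peak of ARHGAP39, may depend on it, which was not tested.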
